A study of Mus musculus with 14 samples.

Results

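The data described here concern miR-184-3p and the arms of miR-190 in the mouse epididymis, a small group of microRNAs (miRNAs) whose level was highest in the corpus, the middle region of the organ. The members were taken by name, namely miR-184-3p in both count tables, miR-190a-5p and miR-190a-3p in the whole tissue table, and miR-190-5p, the older name of miR-190a-5p, in the epithelial table. This gave 4 names of the 999 found in either table, with 3 of the 900 names of the whole tissue table and 2 of the 677 names of the epithelial table. They were chosen by the ratio of their corpus level to their caput and cauda levels in these same libraries, so that the height of the corpus against the caput and the cauda is given below as a description, without a test. The comparisons that the choice did not use, cauda against caput and epithelial cells against whole tissue, were tested.

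Small RNA was sequenced from the caput, corpus and cauda of male Swiss mice aged 8 weeks. Whole tissue gave 3 caput, 2 corpus and 3 cauda libraries, and isolated epithelial cells gave 2 libraries per region. Each library was made from the pooled tissue of several mice whose blood vessels had been flushed with saline. Epithelial cells had been released with trypsin and collagenase and left in suspension while other cells attached to the culture dish. The methods state 2 biological replicates per region, while a note to a supplementary table speaks of technical replicates, and the p-values below therefore measure the spread between these libraries, which may be technical. The total was 1243398 to 2135501 counts in whole tissue libraries and 89039 to 362867 counts in epithelial ones. Levels are in CPM, which adjusts each count for the size of its library, and 10 counts corresponded to between 4.68 and 8.04 CPM in whole tissue and to between 27.6 and 112 CPM in epithelial cells. Every value of the members was a whole number within a tolerance of 0.001, and a mean above 10 counts was the threshold for calling a miRNA identified in a region, which was reached in at least 1 region by 360 miRNAs in whole tissue and 216 in epithelial cells.

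A miRNA is cut by Drosha and Dicer from a hairpin transcript, and 1 of its arms is loaded into an Argonaute protein and guides it to messenger RNAs through the seed, the stretch from base 2 to base 8. The epididymis is the duct in which spermatozoa mature on their way through caput and corpus, and the cauda stores them. miR-184 is best known from the epithelia of the cornea and lens, where it is abundant, and from neural stem cells, where it acts on Numbl. miR-190a is transcribed within Tln2, the gene of talin 2, a protein that ties integrins to the actin skeleton, and Neurod1 is among its described targets.

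The mature sequences are shown because the seed decides which transcripts a miRNA can recognise and because 2 of the names differ only in their last bases. They were taken from RefSeq on GRCm38.p6, which held all of them, with the seed in capitals.
miR-184-3p, chr9:89802263-89802284, minus strand: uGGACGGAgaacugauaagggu
miR-190a-5p, chr9:67236700-67236721, minus strand: uGAUAUGUuugauauauuaggu
miR-190a-3p, chr9:67236664-67236685, minus strand: aCUAUAUAucaagcauauuccu
miR-190b-5p, chr3:90070030-90070051, plus strand: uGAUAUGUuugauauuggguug
miR-190a-5p shared its seed with miR-190b-5p and with no other mature miRNA of the RefSeq table, while the seeds of miR-184-3p and miR-190a-3p were each found in 0 other mature miRNAs. The letters of miR-190a-5p and miR-190b-5p are the same over the first 15 positions, and 7 of the 22 positions differ, all of them after position 15. The share of A and U was 77.3% in miR-190a-5p and 72.7% in miR-190a-3p, against 50% in miR-184-3p.

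The hairpins are shown to place the 2 arms of each, which are in capitals with the 5p arm first.
Mir184, chr9:89802260-89802328, minus strand: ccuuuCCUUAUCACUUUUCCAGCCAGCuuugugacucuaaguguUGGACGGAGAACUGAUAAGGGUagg
Mir190a, chr9:67236660-67236726, minus strand: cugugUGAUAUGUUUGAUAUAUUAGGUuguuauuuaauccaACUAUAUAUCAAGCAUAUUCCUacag
Both genes lie on the minus strand of chromosome 9, 22565534 bases apart. In GENCODE M21, which uses the same build, Mir190a lies in an intron of Tln2 (chr9:67217087-67559703, minus strand) and overlaps no exon. Mir184 lies outside annotated genes, 542 bases from the long noncoding RNA gene 1700017I07Rik on the opposite strand and 63785 bases from Ankrd34c, the nearest protein-coding gene. No other hairpin was annotated within 1 Mb of Mir184, and the 2 within 1 Mb of Mir190a, Mir7241 and Mir7242, gave no miRNA that either table names.

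In whole tissue, miR-184-3p was a rare miRNA in the caput and of moderate abundance in the corpus. Its counts were 36, 17 and 24 (caput), 348 and 498 (corpus) and 193, 126 and 148 (cauda). After scaling by TMM, which corrects for a difference in composition between libraries, its level was 23.2, 11.7 and 13.2 CPM in the caput, 260.0 and 327 CPM in the corpus, and 99.3, 77.6 and 87.3 CPM in the cauda. No value of one region reached into another, and the order of the regions was corpus, cauda, caput. In libraries of bulk tissue, fewer cells that contain a miRNA and less of it in each cell cannot be told apart. The caput mean was 16.0 ± 6.22 CPM (SD, n = 3), the corpus mean 293 ± 47.1 CPM (SD, n = 2) and the cauda mean 88.1 ± 10.9 CPM (SD, n = 3). Among the 360 identified miRNAs it ranked between 230 and 266 in caput libraries, 98 and 103 in corpus libraries, and 151 and 167 in cauda libraries. In limma-voom, the level in the corpus exceeded that in the caput by 4.23 on the log2 scale (standard error 0.26, 18.8-fold) and then fell by 1.73 to the cauda (standard error 0.18, 3.32-fold).

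miR-190a-5p, the arm of Mir190a that carries the seed shared with miR-190b-5p, followed nearly the same course. Its counts were 31, 27 and 41 (caput), 329 and 472 (corpus) and 139, 116 and 134 (cauda). These corresponded to 19.9, 18.6 and 22.5 CPM in the caput, 246 and 309.6 CPM in the corpus, and 71.5, 71.4 and 79.0 CPM in the cauda. The regions again did not overlap and stood in the same order. Its mean was 20.4 ± 1.97 CPM for the caput (SD, n = 3), 278 ± 45.1 CPM for the corpus (SD, n = 2) and 74.0 ± 4.34 CPM for the cauda (SD, n = 3). The fitted rise from caput to corpus was 3.74 on the log2 scale (standard error 0.18, 13.4-fold), and the level fell by 1.90 from corpus to cauda (standard error 0.14, 3.73-fold).

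miR-190a-3p, the opposite arm of the same hairpin, was close to the limit of detection. It had 7, 3 and 1 counts in caput libraries, 12 and 9 in corpus libraries, and 8, 8 and 5 in cauda libraries, and only its corpus mean of 10.5 counts was above the threshold for identification. Its level was 4.50, 2.07 and 0.549 CPM in the caput, 8.97 and 5.90 CPM in the corpus, and 4.12, 4.93 and 2.95 CPM in the cauda. Both corpus libraries were above all others, but caput and cauda overlapped. The corpus exceeded the caput by 1.88 on the log2 scale (standard error 0.62) and the level fell by 0.84 from corpus to cauda (standard error 0.53), and counting error alone is large at this depth, since the corpus library with 9 counts and the cauda libraries with 8 counts differed by 1 count. Without corpus replicate 1 it was identified in 0 regions.

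In isolated epithelial cells, the order corpus, cauda, caput was the same for both miRNAs, at far lower counts. miR-184-3p had 4 and 5 counts (caput), 34 and 17 (corpus) and 6 and 27 (cauda). Its level was 12.4 and 16.1 CPM in the caput, 276 and 174 CPM in the corpus, and 22.3 and 129 CPM in the cauda. The 2 cauda libraries stood far apart, and the lower of them held only 6 counts against 4 and 5 in the larger caput libraries. The means were 14.3 ± 2.59 CPM in the caput, 225 ± 72.3 CPM in the corpus and 75.7 ± 75.4 CPM in the cauda (SD, n = 2 each), so that in the cauda the spread was as large as the mean. The fitted rise from caput to corpus was 3.85 on the log2 scale (standard error 0.86), and the level fell by 2.12 from corpus to cauda (standard error 0.67).

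In epithelial cells miR-190-5p had 6 and 6 counts (caput), 29 and 39 (corpus) and 25 and 31 (cauda). This gave 18.7 and 19.3 CPM in the caput, 235 and 398 CPM in the corpus, and 93.1 and 148 CPM in the cauda, with no overlap between regions. The means were 19.0 ± 0.467 CPM in the caput, 317 ± 115 CPM in the corpus and 121 ± 38.9 CPM in the cauda (SD, n = 2 each). The rise from caput to corpus was 3.89 on the log2 scale (standard error 0.53), and the level fell by 1.38 from corpus to cauda (standard error 0.38). Neither miRNA was identified in the epithelial caput, where their mean counts were 4.5 and 6, and both were identified in the corpus and the cauda.

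**Figure D1:**
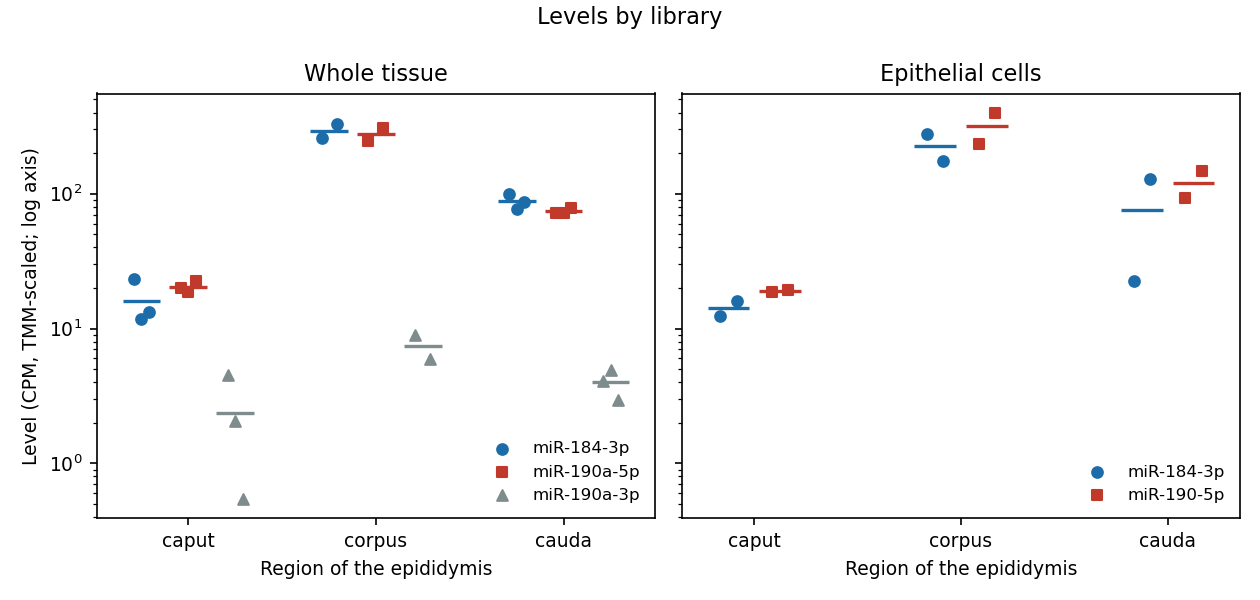
Level of each miRNA (CPM after TMM scaling, log axis) by region, in whole tissue (left) and epithelial cells (right). Each point is 1 library and each bar the mean of its region. The corpus points of miR-184-3p and of miR-190a-5p or miR-190-5p lie between 174 and 398 CPM, above all caput and cauda points, and the cauda points of miR-184-3p in epithelial cells are 22.3 and 129 CPM.

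The corpus level was set against that of all other identified miRNAs as the log2 ratio of the corpus mean to the higher of the caput and cauda means, with 1 CPM added to each mean. This ratio is the measure for which the members had been chosen. In whole tissue it was 1.89 for miR-190a-5p, the rank 3 of 360, 1.72 for miR-184-3p, the rank 5, and 0.76 for miR-190a-3p, the rank 14. In epithelial cells it was 1.56 for miR-184-3p and 1.39 for miR-190-5p, the ranks 1 and 2 of 216. Over all identified miRNAs the median ratio was -0.64 for whole tissue and -0.43 for epithelial cells, and the corpus was at least 2-fold above both other regions for 8 miRNAs in whole tissue and 3 in epithelial cells. Every corpus library was above every caput and cauda library for all 3 members in whole tissue and both in epithelial cells, which held for 10.8% of all identified miRNAs in whole tissue and 10.6% in epithelial cells. The gap was narrowest for miR-190a-3p, with 5.90 CPM in its lowest corpus library and 4.93 CPM in its highest other library, and for miR-184-3p in epithelial cells, with 174 and 129 CPM. The latter rested on the cauda libraries, since the log2 ratio was 0.80 without cauda replicate 1 and 3.27 without cauda replicate 2. The median fitted change of all miRNAs from caput to corpus was -0.05 (log2) in whole tissue with TMM and 0.28 with library totals, a shift that is small beside the members' changes.

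**Figure D2:**
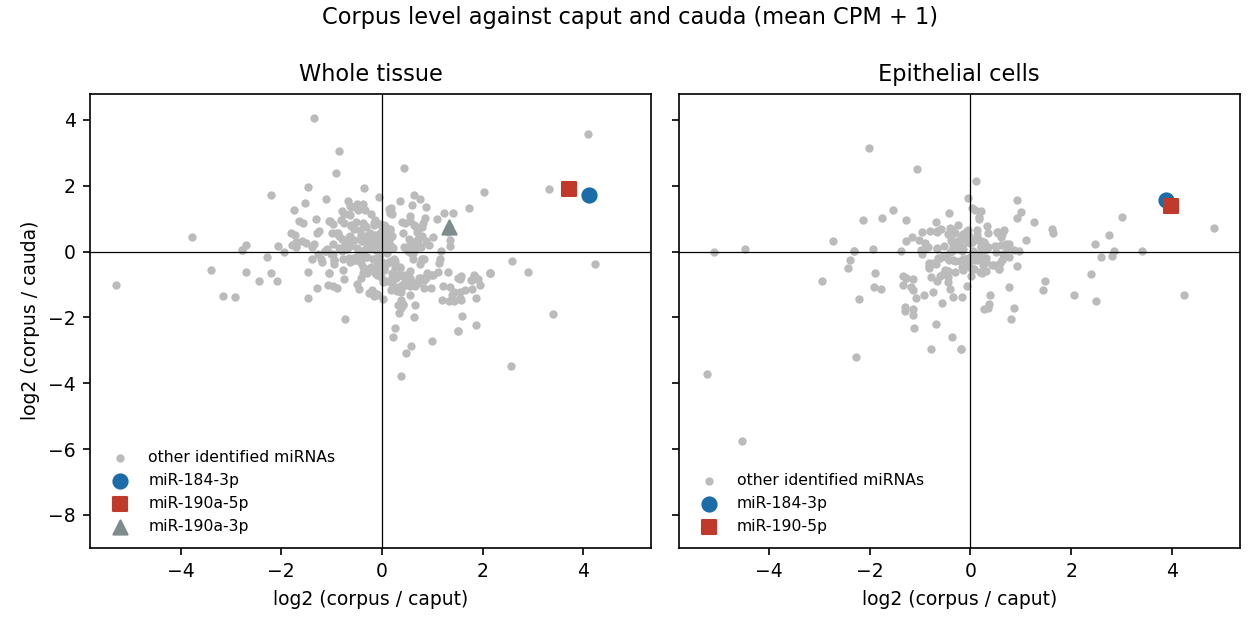
Log2 ratio of the mean corpus level to the mean caput level (horizontal axis) and to the mean cauda level (vertical axis), with 1 CPM added to each mean. Each grey point is 1 of the other identified miRNAs, of 360 in whole tissue (left) and 216 in epithelial cells (right). Points in the upper right quadrant were highest in the corpus, where miR-184-3p and miR-190a-5p or miR-190-5p lie near the right edge and miR-190a-3p lies closer to the origin.

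In whole tissue, the ranks 1 and 2 were held by miR-211-5p, an intronic miRNA of Trpm1 best known from melanocytes, and by miR-3475-3p. The log2 ratio was 3.57 for miR-211-5p, at 45.6 ± 3.71 CPM in the corpus (SD, n = 2), and 1.91 for miR-3475-3p, at 11.3 ± 5.38 CPM (SD, n = 2), and some values of miR-211-5p were fractions. In epithelial cells the rank 3 was held by miR-741-3p, an X-linked miRNA known from the testis, with a log2 ratio of 1.04 and 224 ± 187 CPM in the corpus (SD, n = 2). Of the 212 miRNAs identified in both preparations, 15 had every corpus library above all others in both, which were 68.2% of the 22 in whole tissue and 65.2% of the 23 in epithelial cells. The corpus was at least 2-fold above both other regions in both preparations for 2 of the 212, miR-184-3p and miR-190a-5p. miR-186-5p narrowly missed this cutoff, with a log2 ratio of 1.18 in whole tissue and 0.91 in epithelial cells. The members themselves met it in epithelial cells only through single libraries. Their log2 ratio there was below 1 for miR-190-5p without corpus replicate 2 (0.96) and for miR-184-3p without cauda replicate 1 (0.80).

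The cauda was compared with the caput by limma-voom over all identified miRNAs, with Benjamini-Hochberg adjustment, and a miRNA was called at an adjusted p below 0.05 if it changed 2-fold or more. In whole tissue, miR-184-3p was higher in the cauda by 2.50 on the log2 scale (standard error 0.26, 95% interval 1.92 to 3.08, adjusted p = 1.1e-05), and all 3 cauda libraries were above all 3 caput libraries. miR-190a-5p was higher by 1.84 (standard error 0.18, 95% interval 1.43 to 2.25, adjusted p = 8.3e-06), likewise in 3 of 3 libraries. Both members tested were called, in a comparison that called 53.2% of the 355 miRNAs tested, with 27.9% of the 355 called as higher in the cauda. Calls were thus common between these regions. miR-190a-3p was not tested because its mean was 10 counts or fewer in both regions.

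In epithelial cells, both miRNAs entered the test only through the cauda, since their caput means of 4.5 and 6 counts were below the threshold for identification. miR-190-5p was higher in the cauda by 2.51 on the log2 scale (standard error 0.54, 95% interval 1.28 to 3.75, limma-voom adjusted p = 0.0087), with both cauda libraries above both caput libraries. miR-184-3p was also higher in each cauda library than in each caput library, but the difference of 1.73 (standard error 0.91, 95% interval -0.38 to 3.84) had a limma-voom adjusted p = 0.17 and was not called. In this comparison 25.9% of the 216 miRNAs tested were called, with 13.9% of the 216 called as higher in the cauda. Where every miRNA with at least 1 count in the 6 libraries was tested, so that neither region decided which miRNAs entered, the limma-voom difference was 2.40 for miR-190-5p (adjusted p = 0.0026) and 1.61 for miR-184-3p (adjusted p = 0.16). On all 6 libraries, DESeq2's Wald test gave 2.42 for miR-184-3p (adjusted p = 0.027). The edgeR quasi-likelihood test gave 2.30 (adjusted p = 0.060) and did not call it. Without cauda replicate 1, the library with 6 counts, the difference of miR-184-3p was 3.13. Without cauda replicate 2 its cauda mean was 6 counts, under the threshold, and it was not tested. Without caput replicate 2, miR-190-5p differed by 2.58 (limma-voom adjusted p = 0.071). In these fits the lone library of a region was assumed to vary like those of the other regions.

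Markers of several cell types moved with the cauda against caput differences. The summed level of the smooth muscle markers (miR-143 and miR-145, 4 of 4 present) was between 53228 and 65976 CPM in the caput of whole tissue, 76254 and 80349 CPM in the corpus, and 223163 and 249092 CPM in the cauda. The epithelial list (5 members of the miR-200 family and miR-205, 6 of 6 present) went the other way in whole tissue, with 21881 to 23681 CPM in caput libraries, 17395 to 18222 CPM in corpus libraries and 8185 to 9893 CPM in cauda libraries. Of the other lists in whole tissue, 4 were also higher in every cauda library than in every caput library, namely germ and ciliated cells (3690 to 5133 CPM in the caput and 8438 to 10358 CPM in the cauda), leukocytes (966 to 1160 and 1948 to 1993 CPM), fibroblasts (1360 to 1631 and 2362 to 2758 CPM) and red blood cells (23.6 to 32.4 and 106 to 241 CPM). In epithelial cells the same held for the endothelial list (25517 to 35754 CPM in the caput and 46640 to 56669 CPM in the cauda), leukocytes (470.4 to 865 and 1380.3 to 1586 CPM), fibroblasts (1739 to 1899 and 2467 to 3681 CPM) and red blood cells (129 to 171 and 291 to 451 CPM). It also held there for the epithelial list (26042 to 28510 CPM in the caput and 33642 to 41128 CPM in the cauda). In epithelial cells the smooth muscle list was between 144526 and 336801 CPM, and the epithelial list between 26042 and 41128 CPM, so that the markers of both cell types were present in the libraries labelled epithelial. Epithelial cauda replicate 1, in which miR-184-3p was at 22.3 CPM, had the highest smooth muscle sum at 336801 CPM and a sum of germ and ciliated cell markers (miR-34b, miR-34c and miR-449a, 5 of 5 present) of 1929 CPM. Replicate 2, with 129 CPM of miR-184-3p, had sums of 158218 CPM and 5177 CPM. The part of these cell types in the values of miR-184-3p, miR-190a-5p and miR-190-5p was not tested. Lists for 7 cell types were examined, and for 0 of the 7 in either preparation was the summed level of both corpus libraries above that of all others. In whole tissue the fibroblast list was at 2505 to 2622 CPM in the corpus, above the caput and within the cauda range. The epithelial corpus libraries were below all others for the endothelial list (13092 to 14322 CPM) and red blood cells (64.9 to 91.9 CPM). For germ and ciliated cells they (1705 to 2020 CPM) were below the caput (3747 to 4235 CPM). The corpus mean was the highest of the 3 for 5 of the 28 single markers in whole tissue and for 7 of 28 in epithelial cells, against 20% and 23.1% of all identified miRNAs. The 5 in whole tissue were miR-200c-3p, miR-141-3p, miR-199a-5p, miR-214-3p and miR-150-5p. The 7 in epithelial cells included 4 of the 6 epithelial markers. Their log2 ratio of the corpus to the higher other region was 0.999 (miR-141-3p), 0.18 (miR-200c-3p), 0.16 (miR-200a-3p) and 0.014 (miR-205-5p). For the remaining epithelial markers it was negative, at -0.60 (miR-200b-3p) and -0.66 (miR-429-3p). The summed epithelial list in epithelial cells was 26042 to 28510 CPM in the caput, 38705 to 40513 CPM in the corpus and 33642 to 41128 CPM in the cauda. None of the markers was at 0 in every library.

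Epithelial cells were then compared with whole tissue in 1 limma-voom fit of the 14 libraries, over the 212 miRNAs identified in both preparations, with miR-190-5p and miR-190a-5p taken as the same miRNA. The preparations were counted into separate tables under different miRNA names and differed in depth, so that the effects of preparation and of library and counting cannot be told apart. On the scale of this fit, miR-190a-5p in the corpus was at 312 ± 54.3 CPM in whole tissue and 320 ± 115 CPM in epithelial cells (SD, n = 2 each), and the ranges overlapped. The difference was -0.01 on the log2 scale (standard error 0.27, 95% interval -0.59 to 0.57, adjusted p = 0.97). miR-184-3p in the corpus was at 329 ± 56.7 CPM in whole tissue and 227 ± 74.0 CPM in epithelial cells (SD, n = 2 each), a difference of -0.52 (standard error 0.44, 95% interval -1.48 to 0.43, adjusted p = 0.33), where 30.7% of all 212 miRNAs were called. The interval of miR-190a-5p lay within 2-fold and that of miR-184-3p did not. These intervals cover only the spread between libraries, which may be technical, and not the effects of library and counting. Without epithelial corpus replicate 1 the difference of miR-190a-5p was 0.39, and without replicate 2 it was -0.36. The corpus levels of both preparations had also entered the choice of the members.

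In the caput the difference between epithelial cells and whole tissue was -0.30 for miR-184-3p (standard error 0.68, 95% interval -1.76 to 1.17, limma-voom adjusted p = 0.75) and -0.32 for miR-190a-5p (standard error 0.41, 95% interval -1.21 to 0.58, adjusted p = 0.53), on the log2 scale. Here 35.4% of the miRNAs were called, and the median difference of all 212 was -0.29 with TMM and 0.11 with library totals, so that both members lay near the median with either scaling. In the cauda the difference was 0.31 for miR-190a-5p (standard error 0.29, 95% interval -0.30 to 0.93, adjusted p = 0.35) and -1.09 for miR-184-3p (standard error 0.51, 95% interval -2.20 to 0.01, adjusted p = 0.077), where 39.2% were called. The value of miR-184-3p turned on 1 library, as it was 0.26 without epithelial cauda replicate 1 and -2.26 (limma-voom adjusted p = 0.0082) without replicate 2, each time with 1 epithelial cauda library that was assumed to vary like those of the other groups. The change from caput to cauda differed between the preparations by -0.80 for miR-184-3p (standard error 0.85, limma-voom adjusted p = 0.53) and by 0.63 for miR-190a-5p (standard error 0.50, adjusted p = 0.38), in a comparison that called 18.4%. For miR-184-3p this too turned on 1 library, as it was 0.55 without epithelial cauda replicate 1 and -1.97 without replicate 2. With edgeR and DESeq2's Wald test miR-184-3p differed less between the preparations, by -0.64 and -0.61 in the cauda and by -0.17 and -0.27 in the change from caput to cauda. Of these 8 comparisons, 0 were called by limma-voom, 0 had an unadjusted p below 0.05, and 0 were called by edgeR's quasi-likelihood test or DESeq2's Wald test.

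**Figure D3:**
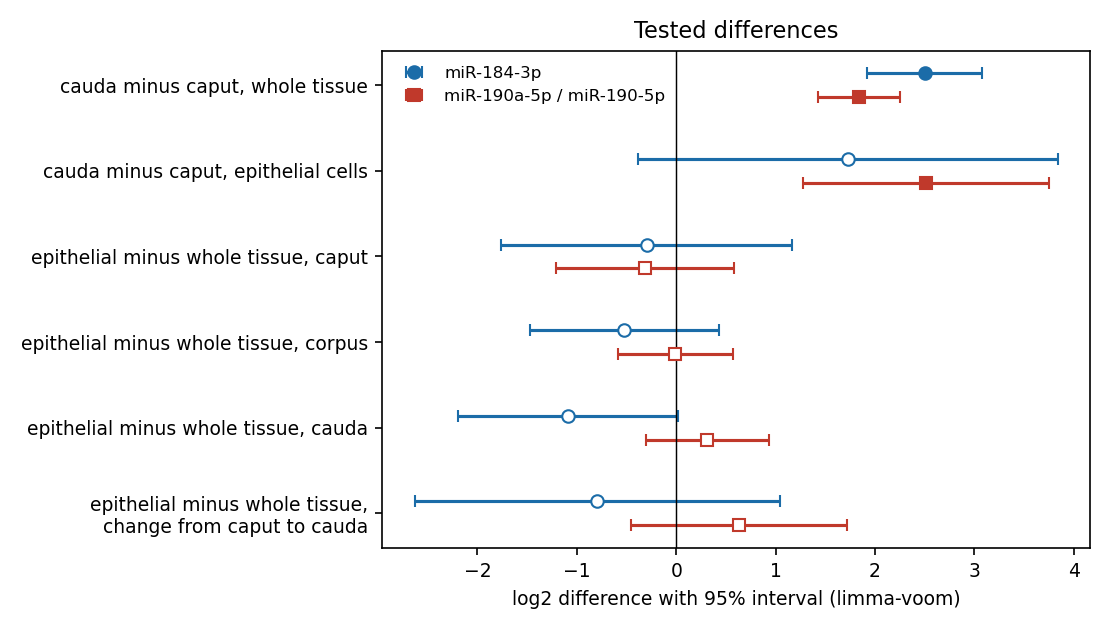
Log2 difference from limma-voom (horizontal axis) with its 95% interval, for miR-184-3p (circles) and for miR-190a-5p or miR-190-5p (squares) in the 6 tested comparisons. Filled symbols were called and open symbols were not. The cauda exceeded the caput in whole tissue by 2.50 for miR-184-3p and 1.84 for miR-190a-5p, and all intervals between the preparations reach or cross 0.

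The levels of miR-184-3p and miR-190a-5p can also be compared within a library, where total count and scaling have no part. Their ratio is a ratio of counts and includes any difference in how well each was captured. In whole tissue there were 1.16, 0.630 and 0.585 counts of miR-184-3p per count of miR-190a-5p in caput libraries, 1.06 and 1.06 in corpus libraries, and 1.39, 1.09 and 1.104 in cauda libraries. The exact 95% interval of the ratio held 1 in both corpus libraries and in 2 of the 3 cauda libraries, and was 1.11 to 1.74 in cauda replicate 1. The caput mean was 0.792 ± 0.320 (SD, n = 3), and caput replicates 2 and 3 lay below every corpus and cauda library, with an interval of 0.338 to 0.992 in caput replicate 3 that did not hold 1. In epithelial cells the ratio to miR-190-5p was 0.667 and 0.833 (caput), 1.17 and 0.436 (corpus) and 0.240 and 0.871 (cauda). The exact 95% interval of the ratio was 0.138 to 2.81 in epithelial caput replicate 1, with 4 and 6 counts, 0.231 to 0.789 in epithelial corpus replicate 2, with 17 and 39 counts, and 0.0805 to 0.599 in epithelial cauda replicate 1, with 6 and 25 counts. The last 2 of these lay below 1. Such intervals cover counting error only, since reads that came through PCR are not independent molecules.

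**Figure D4:**
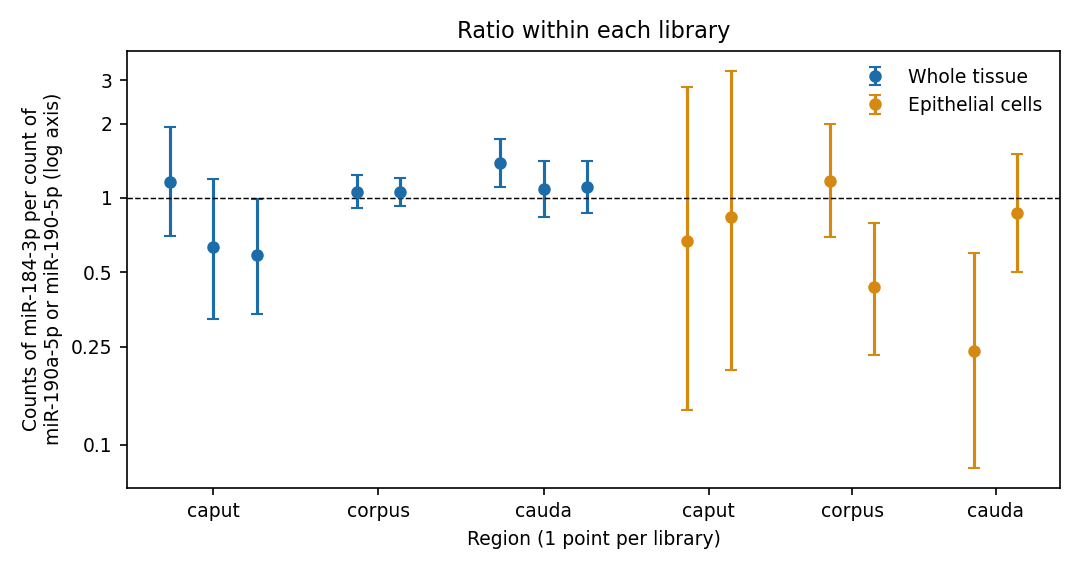
Counts of miR-184-3p per count of miR-190a-5p (whole tissue) or miR-190-5p (epithelial cells), 1 point per library, on a log axis with exact 95% intervals from counting error. The dashed line marks equal counts. The 2 corpus libraries of whole tissue are both at 1.06, and the epithelial cauda libraries are at 0.240 and 0.871.

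The 5p arm gave most of the counts of the Mir190a hairpin. In whole tissue its share was 81.6%, 90% and 97.6% in the caput libraries, 96.5% and 98.1% in the corpus libraries, and 94.6%, 93.5% and 96.4% in the cauda libraries. The share of the caput replicate 1, with 31 counts of the 5p and 7 of the 3p arm, had an exact 95% interval of 65.7% to 92.3%, and that of the corpus replicate 2, with 472 and 9 counts, of 96.5% to 99.1%. The mean share was 89.7 ± 8.02% for the caput (SD, n = 3), 97.3 ± 1.17% for the corpus (SD, n = 2) and 94.8 ± 1.45% for the cauda (SD, n = 3), and the caput overlapped both other regions. From caput to corpus the mean count of the 5p arm went from 33 to 400.5 and that of the 3p arm from 3.67 to 10.5. In epithelial cells the 3p arm, listed there as miR-190-3p, had 1 count in each caput library, 1 and 0 counts in the corpus libraries, and 0 in both cauda libraries. A library with 0 counts allows up to 3, which in these epithelial libraries is between 10.6 and 33.7 CPM.

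Of the relatives outside the group, miR-190b-5p, which shares the seed of miR-190a-5p, had 0, 0 and 1 counts in the caput of whole tissue, 0 in both corpus libraries, and 4, 1 and 2 in those of the cauda. In epithelial cells it had 0 counts in 5 of the 6 libraries and 1 count in cauda replicate 2. Almost all counts with this seed were therefore those of miR-190a-5p. miR-184-5p and miR-190b-3p, listed in the epithelial table, had 0 counts in all 6 libraries, so that the counts of the Mir184 hairpin in these libraries were those of its 3p arm. With 0 counts, up to 3 are allowed, which is between 8.27 and 33.7 CPM in these libraries. No value of miR-184-5p is given here for whole tissue.

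The identified miRNAs most like each member were found by Pearson's correlation of log2(CPM + 1) over the libraries of a table, which share their regions and their depth, and are given as a description. In whole tissue (8 libraries, 359 other miRNAs) miR-184-3p and miR-190a-5p were each other's nearest, with r = 0.980 and a Spearman's rho of 0.952. miR-184-3p was next most like miR-101a-3p (r = 0.958) and its paralog miR-101b-3p (r = 0.948), and miR-190a-5p was next most like let-7i-5p (r = 0.977) and miR-3475-3p (r = 0.968). The likeness is one of shape and not of size, since miR-101a-3p went from a mean of 1243 CPM in the caput to 1870 CPM in the corpus. miR-190a-3p was most like miR-615-3p (r = 0.862), miR-101a-3p (r = 0.832) and miR-184-3p (r = 0.796), and its own 5p arm came at rank 9 (r = 0.721). In epithelial cells (6 libraries, 215 others) miR-184-3p was most like miR-106b-5p (r = 0.970), miR-186-5p (r = 0.941) and let-7d-5p (r = 0.932), with miR-190-5p at rank 4 (r = 0.906). miR-190-5p was most like miR-101a-3p (r = 0.981), the Hox cluster miRNA miR-196a-5p (r = 0.961) and miR-106b-5p (r = 0.943), with miR-184-3p at rank 8.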

How the data were processed

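The deposited values are expected counts of mature miRNAs without normalization, and the constant 0.001 that the epithelial values contained was subtracted. The submitters' processing notes name CASAVA 1.8.2, Bowtie 1.1.1 and limma, and how reads matching several miRNAs were divided is not given in the sources used here. Counts were rounded, which changed library totals by at most 0.0034%, normalized by TMM (edgeR 4.0.16) over the miRNAs identified in any region, and fitted in R 4.3.3 by limma-voom (limma 3.58.1), with a mean per region or, over both preparations, per preparation and region. miRNAs identified in either region compared were adjusted together. Tables were joined by name, and 31 of 609 names were matched by adding the letter a, as for miR-190-5p. The scripts were tested on simulated data. No libraries of a region were duplicates, as their counts differed by far more than counting noise, and 0 columns were left unused. The members, marker lists and tests were chosen with earlier results of these data known. Other miRNAs were named for a seed or hairpin shared with a member, a hairpin within 1 Mb, the 3 highest corpus ratios per table, or the 3 closest correlations per member. As alternatives, edgeR's quasi-likelihood test, DESeq2 1.42.0, other scalings and filters, only the groups compared, a replicate block and leaving out each library were tried.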

Additional observations from a re-analysis of the deposited data

Results flagged for a closer look

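miR-190b-5p, which is no member of the group but carries the seed of miR-190a-5p, had 4 counts in whole tissue cauda replicate 1, above the 3 counts that a count of 0 allows. It was noted because it lies outside the comparisons made, and the value is given without a test.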

How the results depend on the processing

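Apart from leaving out libraries, 135 of the values recomputed under an alternative kept their direction and call (counts within 1.5 times), 13 moved, 1 passed the threshold and 8 changed sign. In whole tissue, miR-184-3p and miR-190a-5p were called as higher in the cauda under all 8 alternatives. Requiring at least 10 counts in every library lowered the number of miRNAs called from 189 to 115 for whole tissue and from 56 to 28 for epithelial cells between caput and cauda, from 75 to 42, 65 to 38 and 83 to 45 between the preparations in caput, corpus and cauda, and from 39 to 21 for the difference between preparations, and the members could not be tested under it in epithelial cells or between preparations, as they had under 10 counts. Testing all miRNAs with at least 1 count gave 244, 278 and 267 between the preparations in caput, corpus and cauda, and fitting only the groups compared gave 39 in the corpus and left the members untested in the caput. In the epithelial cauda against caput, DESeq2's Wald test gave 2.42 and edgeR 2.30 for miR-184-3p. Between preparations, library totals turned the caput values to 0.11 for miR-184-3p and 0.084 for miR-190a-5p, and the corpus value of miR-190a-5p, -0.01, became 0.015 with edgeR, 0.12 with DESeq2's Wald test, 0.071 with its size factors, 0.045 with library totals, 0.082 with only the groups compared and 0.017 with the replicate block, with no call. With a count above 10 required in every library of a region, miR-190a-3p was identified in 0 regions and miR-184-3p in epithelial cells in 1, as it also was with counts scaled to the smallest library total.

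Without single libraries, the number called ranged from 26 to 60 in epithelial cells between caput and cauda, from 41 to 66 between preparations in the corpus and from 25 to 45 for the difference between preparations. The log2 differences ranged from 1.66 to 3.13 (miR-184-3p) and 2.20 to 2.94 (miR-190-5p) in epithelial cells between caput and cauda, from -0.58 to 0.040 (miR-184-3p) in the caput, from -0.36 to 0.39 (miR-190a-5p) in the corpus, and from -2.26 to 0.26 (miR-184-3p) and -0.039 to 0.71 (miR-190a-5p) in the cauda between preparations, and from -1.97 to 0.55 (miR-184-3p) for the difference between preparations. The first of these ranges holds no value without epithelial cauda replicate 2, where miR-184-3p was under the threshold for identification and was not tested. The lowest numbers called came without epithelial caput replicate 2, corpus replicate 2 and cauda replicate 1, in that order. Regions of identification ranged from 0 to 1 for miR-190a-3p and from 1 to 2 for miR-184-3p in epithelial cells, with the lower values without tissue corpus replicate 1 and epithelial cauda replicate 2.

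The replicate numbers of the titles were not taken to pair libraries in the main fits. Same-numbered caput and cauda libraries of whole tissue deviated together with r = 0.174, 0.117 and 0.077 across miRNAs, and r was -0.093 in epithelial cells. For caput and corpus r was -0.0075 and -0.038 in whole tissue and 0.205 in epithelial cells, and for corpus and cauda it was 0.211 and 0.102 in whole tissue and -0.053 in epithelial cells. With the replicate block, 187 and 52 miRNAs were called between caput and cauda in whole tissue and epithelial cells, and the difference was 2.47 for miR-184-3p and 1.85 for miR-190a-5p in whole tissue, and 1.94 (adjusted p = 0.14) and 2.57 (adjusted p = 0.0053) for miR-184-3p and miR-190-5p in epithelial cells. The causes of these changes were not tested. Low counts limit the values of the epithelial caput, where both miRNAs had 6 counts or fewer per library.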
